A study of Mus musculus with 24 samples.

Results

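The genes described here encode the motors that move along microtubules. They are the kinesin heavy chains (Kif and Kifc symbols), the kinesin light chains (Klc1 to Klc4), the subunits of cytoplasmic dynein (Dync and Dynl symbols) and the dynactin subunits Dctn1 to Dctn6. They were chosen by gene symbol alone, with pseudogenes left out, which gave 67 of the 38924 genes listed. By role they fell into 3 kinesin-1 heavy chains, 4 kinesin light chains, 4 kinesin-2, 6 kinesin-3, 8 other kinesins, 14 mitotic kinesins, 6 kinesins of cilia and Hedgehog signalling, 5 cytoplasmic dynein 1 subunits, 9 dynein light chains, 2 dynein 2 subunits and 6 dynactin subunits.

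The study asked how a dominant mutation of Gars, the gene of glycyl-tRNA synthetase, changes the mRNA on ribosomes of adult motor neurons. Spinal cords were taken from mice of 8 weeks on a B6.CgxB6.129 background, and all of them carried 1 copy of HA-tagged Rpl22, a ribosomal protein whose tag is switched on by Cre. The 24 libraries formed 4 groups of 6 mice each. C201R mice with Cre were heterozygous for Gars C201R and carried ChAT-Cre, WT mice with Cre carried ChAT-Cre and wild-type Gars, C201R mice without Cre were heterozygous for Gars C201R only, and WT mice without Cre had neither. Cre was driven from the choline acetyltransferase locus, so the tag marks cholinergic cells as a class, which in the cord includes motor neurons, preganglionic neurons and cholinergic interneurons. Pulldowns without Cre hold background RNA, and in bulk pulldowns fewer cells of a type and less RNA per cell cannot be told apart.

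Kinesins mostly carry cargo towards the plus ends of microtubules, which in axons point away from the cell body, and cytoplasmic dynein, with its cofactor dynactin, carries cargo back. Motor neurons have very long axons and depend on both. Other kinesins build the mitotic spindle, which postmitotic neurons no longer form, or serve in cilia.

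Library totals ranged from 8898800 to 28294939 expected counts. The chosen genes together took 0.749 to 1.427% of counts in C201R with Cre, 1.015 to 1.552% in WT with Cre, 0.582 to 1.013% in C201R without Cre and 0.61 to 1.292% in WT without Cre, after mitochondrial transcripts and Gm26924, a gene model known to draw ribosomal RNA, were set aside. A pair of Cre libraries stood apart: mouse 14003-1 (C201R) and mouse 14701-9 (WT) had 15.76% and 17.11% of counts in mitochondrial transcripts, against 3.03 to 6.45% and 1.24 to 3.67% in the other libraries of their groups, and the lowest shares for the chosen genes there. Mitochondrial transcripts took 35.2 to 49.6% of counts in C201R without Cre and 42.0 to 55.5% in WT without Cre. Gm26924 took 8.01 to 43.26% of counts in C201R with Cre and 7.45 to 30.8% in WT with Cre. Without Cre it took 1.6 to 7.6% in C201R and 1.72 to 4.63% in WT, so its share nearly followed Cre. A fit with this share as covariate cannot tell its part from that of Cre. Calls lost in that fit therefore decide nothing about the Cre change. Where leaving out mice 14003-1 and 14701-9 changed a call of a chosen gene, the value without them is given. Calls of marker genes and of other listed genes are from the fit over all libraries only, and their dependence on these mice was not examined. Gars itself ranged from 144 to 205 CPM in C201R with Cre and from 80.3 to 106.5 CPM in WT with Cre. CPM is the usual depth-scaled read count, here with TMM scaling over the 24 libraries. The mutation changes a codon and does not remove the transcript, so Gars level does not check the genotype labels.

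The Cre labels were checked with marker genes. All 7 cholinergic markers analysed were higher with Cre (median log2 change 4.17). Their summed level per kb of transcript was 413 to 473 CPM in C201R with Cre, 364 to 569 CPM in WT with Cre, 22.7 to 29.3 CPM in C201R without Cre and 24.9 to 104.1 CPM in WT without Cre, with the 104.1 CPM in mouse 14702-6. Markers of other cells moved the other way: all 8 astrocyte, 8 oligodendrocyte, 7 tested microglia, 6 endothelial and mural and 5 tested markers of other spinal neurons were lower with Cre. None of these marker genes was at 0 in a whole group. Summed oligodendrocyte markers, for example, were 211 to 335 CPM per kb in C201R with Cre and 200.4 to 446 in WT with Cre, against 2032 to 3046 in C201R without Cre and 1842 to 3312 in WT without Cre.

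Promoters of 4 spindle kinesins are shown because they hold a short cell-cycle element, and those of 3 axonal motors are shown beside them as examples without a match. RefSeq promoters (build GRCm38.p6, 250 bases before to 50 after the start) matched 51 of the 67 genes, with 58 promoters. The element, known as the cell cycle genes homology region (CHR), was searched as TTTGAA on both strands, and each match stands in capitals, as TTCAAA where it lies on the other strand. Kif11, Kif15, Kif20b and Kif23 act in the spindle or in cytokinesis, and Kif5c, Klc1 and Dync1i1 encode parts of axonal transport motors. The windows are Kif11 (chr19:37376132-37376431, plus strand), Kif15 (chr9:122950831-122951130, plus strand), Kif20b (chr19:34922108-34922407, plus strand), Kif23 (chr9:61946750-61947049, minus strand), Kif5c (chr2:49619036-49619335, plus strand), Klc1 (chr12:111758618-111758917, plus strand) and Dync1i1 (chr6:5725389-5725688, plus strand).
Kif11: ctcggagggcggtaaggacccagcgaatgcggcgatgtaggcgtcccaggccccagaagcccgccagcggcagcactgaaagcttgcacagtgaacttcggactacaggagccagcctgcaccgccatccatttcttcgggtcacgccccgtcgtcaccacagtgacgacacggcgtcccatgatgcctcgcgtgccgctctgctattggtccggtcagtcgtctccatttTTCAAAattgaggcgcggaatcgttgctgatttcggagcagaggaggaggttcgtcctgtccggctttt
Kif15: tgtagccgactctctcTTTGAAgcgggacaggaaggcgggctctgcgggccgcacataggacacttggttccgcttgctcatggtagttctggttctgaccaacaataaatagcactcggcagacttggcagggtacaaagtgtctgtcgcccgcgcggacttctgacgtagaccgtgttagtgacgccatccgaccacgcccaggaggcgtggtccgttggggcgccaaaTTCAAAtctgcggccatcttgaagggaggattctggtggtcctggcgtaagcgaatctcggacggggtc
Kif20b: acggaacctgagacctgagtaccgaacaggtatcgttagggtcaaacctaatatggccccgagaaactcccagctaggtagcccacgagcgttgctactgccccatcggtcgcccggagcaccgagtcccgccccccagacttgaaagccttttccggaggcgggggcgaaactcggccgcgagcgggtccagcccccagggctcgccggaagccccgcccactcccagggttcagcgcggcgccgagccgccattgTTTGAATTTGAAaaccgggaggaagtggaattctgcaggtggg
Kif23: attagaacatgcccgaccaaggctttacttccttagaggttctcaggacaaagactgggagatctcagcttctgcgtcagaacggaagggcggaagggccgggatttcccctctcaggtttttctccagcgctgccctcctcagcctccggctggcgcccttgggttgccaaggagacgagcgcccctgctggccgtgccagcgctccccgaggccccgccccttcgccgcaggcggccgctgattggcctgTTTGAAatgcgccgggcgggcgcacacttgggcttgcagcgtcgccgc
Kif5c: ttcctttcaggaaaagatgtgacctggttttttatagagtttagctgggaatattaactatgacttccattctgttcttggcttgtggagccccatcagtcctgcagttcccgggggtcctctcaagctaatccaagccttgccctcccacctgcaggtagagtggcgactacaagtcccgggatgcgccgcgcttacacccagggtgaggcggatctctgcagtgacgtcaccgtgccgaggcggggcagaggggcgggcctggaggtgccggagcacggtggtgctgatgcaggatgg
Klc1: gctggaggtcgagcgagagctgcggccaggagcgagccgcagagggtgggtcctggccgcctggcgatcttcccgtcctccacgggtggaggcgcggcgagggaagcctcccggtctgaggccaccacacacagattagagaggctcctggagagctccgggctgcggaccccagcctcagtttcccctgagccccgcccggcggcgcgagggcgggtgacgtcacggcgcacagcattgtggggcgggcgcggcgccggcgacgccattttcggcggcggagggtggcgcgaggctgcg
Dync1i1: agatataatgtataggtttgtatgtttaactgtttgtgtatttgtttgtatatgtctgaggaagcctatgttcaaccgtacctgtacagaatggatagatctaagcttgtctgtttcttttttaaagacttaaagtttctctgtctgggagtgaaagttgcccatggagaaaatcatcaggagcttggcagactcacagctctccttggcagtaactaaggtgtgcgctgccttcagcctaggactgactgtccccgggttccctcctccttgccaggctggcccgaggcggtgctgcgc

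TTTGAA was found in 11 of 13 mitotic kinesin promoters (84.6%), against 17.9% of all 32851 promoters of the same length. It was found in 1 of 21 promoters of members higher with Cre (4.8%) and in 5 of 16 promoters of members lower with Cre (31.2%). Those 5 belong to the mitotic Kif4, Kif11, Kif15, Kif20b and Kif23, so the split by direction recounts the mitotic result. Kif15 and Kif23 passed the filter on low counts through the libraries without Cre alone, which fixed their direction in part. In Kif11 the match began 19 bases before the start (position -19), and in Kif23 at position 3 after it. An ETS element, CCGGAAG, was found in 46.2% of the mitotic kinesin promoters and 8.9% of all promoters. The 13 mitotic promoters include those of Kifc1 and Kifc5b, which have largely the same sequence. Both hold TTTGAA and CCGGAAG, so they are not independent in either share. The other motifs searched were an NRF1 element, GCGCATGCG, found in 0 mitotic kinesin promoters and 1.8% of all, an E2F element, TTCCCGC, found in 0 and 4.6%, and an amino acid response element, TGATGNAA, found in 7.7% and 4.0%. Mitotic Kif18a and Kif2b had no match, and in Kif14 the only match was at -228. Outside the mitotic kinesins, matches included 1 of 2 Kif1a promoters (at -44) and 1 of 2 Dctn1 promoters (at -207). TTTGAA and its reverse complement are short, and a match describes letters in this window only.

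Levels within a group were compared per kb of transcript. In WT with Cre, 9 of the 67 genes averaged at least 100 CPM per kb, 26 at least 10 and 39 at least 1. The highest were the dynein light chains Dynlrb1 (333 to 441 CPM per kb over the 6 libraries) and Dynlt3 (213 to 395), the kinesin-3 gene Kif1b (221 to 302) and the kinesin light chains Klc2 (220.0 to 332.5) and Klc1 (232.5 to 257.8). Neighbours among these 5 overlapped. Kif5c, at 81.9 to 209.7 CPM per kb, came next, below all 6 values of Klc1. Dynll1 lay at 143 to 175 CPM per kb, and Kif1a at 80.1 to 130.2, below every Dynll1 value. From Kif1a down to Dync1i1, at 19.62 to 26.3 CPM per kb, each gene overlapped the next in the order. Kif3c (9.58 to 16.48 CPM per kb) lay below every Dync1i1 value, and Kif3b (4.72 to 5.89) below every Kif3c value. The 14 mitotic kinesins together summed to only 1.66 to 6.26 CPM per kb in WT with Cre.

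The first comparison asked which motor genes stood out on ribosomes of cholinergic cells over the background pulldown. All 5 genes classed as cytoplasmic dynein 1, all 6 chosen dynactin genes and 2 of 3 tested kinesin light chains were higher with Cre. Dynein light chains were classed apart. Lower with Cre were 6 of 9 tested mitotic kinesins, 5 of 6 ciliary kinesins and 3 of 6 kinesin-3 genes. The mitotic and ciliary counts include Kif14, Kif15, Kif23 and Kif19a, which passed the filter through the libraries without Cre alone and could hardly have been called higher, so these counts support no direction. Of the 67 genes, 58 passed the filter on low counts. Of these, 23 were higher (39.7%; 33.4% of all 16109 genes tested) and 21 lower (36.2%; 37.4% of all genes tested), so the shares for the family as a whole lay near the background. The median log2 change of the 58 was 0.033, against -0.115 for all genes. By role, 6 of 6 dynactin and 5 of 5 dynein 1 genes were higher. At an unadjusted p under 0.05, 44 of the 58 passed, as many as were called, against 11735 of all 16109 genes.

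**Figure D1:**
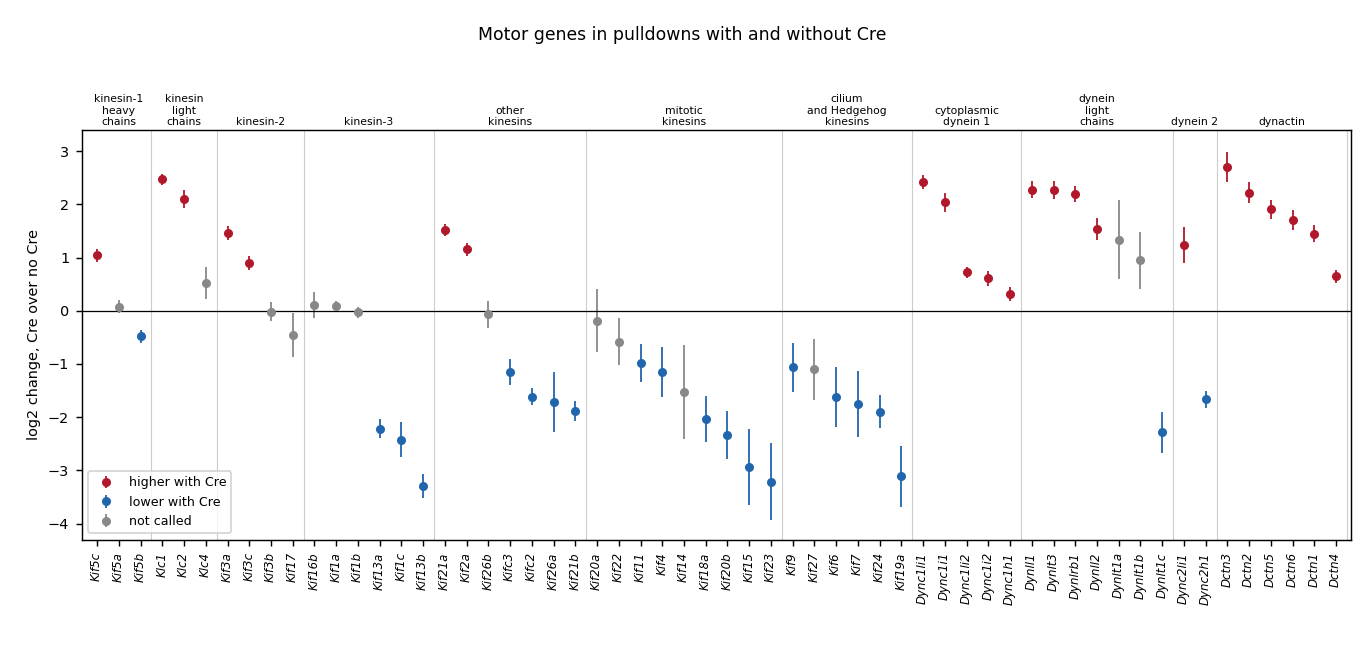
Log2 change of the 58 tested genes, Cre over no Cre, grouped by role (edgeR, 12 libraries each; points are estimates and bars their SE; red is higher, blue lower, grey not called). Dynactin and cytoplasmic dynein 1 genes all lie above 0.

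Kinesin-1, the main anterograde motor of axons, pairs heavy chains with cargo-binding light chains. Where 3 values stand for the 12 libraries with or without Cre, they are the lowest, the median and the highest. Klc1 ranged from 435.5 to 622 CPM (median 482.5) with Cre and from 72.1 to 128.7 CPM (median 87.7) without Cre. No library without Cre reached the lowest library with Cre, and the log2 change was 2.47 ± 0.11 (SE; edgeR quasi-likelihood test, adjusted p = 1.98e-16). Klc2 lay at 157.0 to 308.5 CPM with Cre and 36.1 to 98.6 CPM without, again without overlap, with a log2 change of 2.10 ± 0.16. Klc4 was at 0.52 ± 0.30 (adjusted p = 0.119), and Klc3 was too low to test. The heavy chains differed among themselves. Kif5c, a neuronal heavy chain, was higher with Cre by a log2 change of 1.05 ± 0.12 (adjusted p = 1.6e-08), at 343 to 792 CPM in C201R and 404 to 1034 CPM in WT with Cre, against 289 to 385 CPM in C201R and 295 to 460 CPM in WT without Cre, so the ranges overlapped. Kif5b, the ubiquitous heavy chain, was lower, at -0.48 ± 0.12 (adjusted p = 0.00097), but at 0.22 and not called under scaling by library totals (adjusted p = 0.375). Kif5a, the neuronal heavy chain mutated in human spastic paraplegia, stood at 0.08 ± 0.12 (adjusted p = 0.556) and overlapped widely between pulldowns.

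Heterotrimeric kinesin-2 pairs Kif3a with Kif3b or Kif3c and carries vesicles in axons and material within cilia. Kif3a lay at 108.4 to 235.7 CPM with Cre and 42.1 to 76.1 CPM without, with no overlap and a log2 change of 1.46 ± 0.12 (adjusted p = 2.5e-11). Kif3c had 37.3, 101 and 110.3 CPM with Cre, against 38.9, 48.7 and 83.1 CPM without Cre. It was higher by 0.90 ± 0.14, although 43.3% of its exonic bases overlap a gene on the other strand and the counting was not stated to use strand. Kif3b (-0.01 ± 0.17) and the dendritic motor Kif17 (-0.45 ± 0.42) were not called.

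Kinesin-3 motors split into a pair of abundant genes that did not pass the test and 3 genes that were lower. Kif1a, the carrier of synaptic vesicle precursors, was at 0.08 ± 0.11 (adjusted p = 0.507), and Kif1b, its close relative, at -0.03 ± 0.10 (adjusted p = 0.783). Both were high in every library: Kif1a, for example, had medians of 724 CPM in C201R and 958.5 CPM in WT with Cre, against 721 CPM in C201R and 762.5 CPM in WT without Cre. Kif13b ranged from 1.33 to 8.12 CPM with Cre and from 17.2 to 62.7 CPM without Cre, and Kif13a from 4.68 to 10.01 CPM with Cre and from 26.0 to 79.7 CPM without Cre. Neither gene had overlapping values, and the log2 changes were -3.29 ± 0.22 for Kif13b and -2.22 ± 0.18 for Kif13a. Kif1c fell by 2.42 ± 0.33, and Kif16b, an endosome motor, was at 0.11 ± 0.24. The marker lists of glia and other neurons given above moved in the same direction as these 3 genes, and their part in the result was not tested.

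Among kinesins of other families, Kif21a, a neuronal kinesin that slows microtubule growth, ranged from 537.5 to 752.7 CPM with Cre and from 145.2 to 329.6 CPM without Cre. Its groups did not overlap, and its log2 change was 1.51 ± 0.11 (adjusted p = 1.05e-12). Kif2a, which shortens microtubules, had 88.0, 141 and 173 CPM with Cre, against 46.0, 62.8 and 80.3 CPM without Cre, without overlap. It was higher by 1.15 ± 0.12. Kif21b, the paralog of Kif21a, went the other way at -1.88 ± 0.19 (adjusted p = 6.95e-10), with 5.35 to 13.04 CPM with Cre and 18.8 to 68.5 CPM without. The minus-end motors Kifc2 (-1.62 ± 0.16) and Kifc3 (-1.15 ± 0.25) and the atypical Kif26a (-1.72 ± 0.56) were also lower. Kif26b was at -0.06 ± 0.25. Kif12 was too low to test.

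The mitotic kinesins were low in all groups. Of 14, 9 were tested, and 6 were lower and 0 higher with Cre. Kif18a, which aligns chromosomes, had medians of 1.80 CPM in C201R and 1.30 CPM in WT with Cre, against 6.97 CPM in C201R and 7.03 CPM in WT without Cre. Its log2 change was -2.03 ± 0.43 (adjusted p = 0.000144), although mice 14003-1 and 14701-9 reached 16.98 and 9.33 CPM among the libraries with Cre. Kif23, a kinesin of cytokinesis, had 0, 0.0447 and 0.347 CPM with Cre, against 0, 0.983 and 3.54 CPM without Cre. Kif22, a chromosome-binding kinesin, had 0.356, 1.18 and 3.69 CPM with Cre, against 0.335, 1.72 and 4.69 CPM without Cre. Log2 changes were -3.22 ± 0.73 for Kif23, -2.94 ± 0.72 for Kif15, -2.33 ± 0.45 for Kif20b, -1.15 ± 0.46 for Kif4 and -0.99 ± 0.36 for Kif11, the motor that pushes spindle poles apart. Kif22 (-0.58 ± 0.44), Kif14 (-1.53 ± 0.88, adjusted p = 0.119) and Kif20a (-0.18 ± 0.59) were not called, but without mice 14003-1 and 14701-9 Kif14 was at -2.46 (adjusted p = 0.00224), and Kif18b, Kif2b, Kif2c, Kifc1 and Kifc5b were too low to test. Kif14, Kif15 and Kif23 passed the filter through the libraries without Cre alone, so their direction was fixed in part by the filter. Summed markers of proliferating cells were 0.826 to 7.21 CPM per kb in C201R and 1.22 to 8.50 in WT with Cre, against 5.47 to 13.1 in C201R and 4.59 to 12.8 in WT without Cre. Their part in the result was not tested.

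Kinesins of cilia and of Hedgehog signalling included 5 of 6 called lower with Cre under TMM scaling. Under library totals Kif19a and Kif24 were still called, and Kif6, Kif7 and Kif9 were not. When the share of Gm26924 entered the fit, Kif7 and Kif9 were not called. Kif24, a regulator of ciliogenesis, had 1.73, 2.48 and 9.24 CPM with Cre, against 4.44, 8.39 and 19.7 CPM without Cre, and fell by 1.90 ± 0.31. Kif19a, which trims cilia, had 0, 0.184 and 0.432 CPM with Cre, against 0.196, 1.32 and 4.21 CPM without Cre, and fell by 3.11 ± 0.57. Kif6 had 0, 0.789 and 4.80 CPM with Cre, against 0.891, 2.76 and 8.11 CPM without Cre. All 3 overlapped between pulldowns. Kif7, the Hedgehog regulator, fell by 1.75 ± 0.63, Kif6 by 1.62 ± 0.57 and Kif9 by 1.06 ± 0.46. Kif27 was at -1.10 ± 0.57 (adjusted p = 0.0857). Kif19a passed the filter through the libraries without Cre alone, and Kif7 only over all 24. Of the 5 ependymal markers tested, 3 were also lower with Cre. Their summed level was 4.09 to 19.2 CPM per kb in C201R (19.2 in mouse 14003-1) and 2.86 to 5.32 in WT with Cre, against 6.91 to 11.3 in C201R and 4.82 to 9.02 in WT without Cre. Their part was not tested.

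All 5 cytoplasmic dynein 1 genes were higher with Cre, and the size of the change varied by subunit. Dync1li1, a light intermediate chain, ranged from 55.5 to 91.2 CPM with Cre and from 8.81 to 17.96 CPM without Cre (log2 change 2.41 ± 0.13, adjusted p = 5.38e-15). Dync1i1, the neuronal intermediate chain, ranged from 43.6 to 67.5 CPM with Cre and from 5.94 to 21.1 CPM without Cre (2.04 ± 0.17). Neither had overlapping values. Dync1li2 had 304, 368 and 474 CPM with Cre, against 179, 219 and 279 CPM without Cre, without overlap, and Dync1i2 had 94.7, 113 and 206 CPM with Cre, against 52.6, 70.9 and 121 CPM without Cre. Their log2 changes were 0.72 ± 0.10 and 0.61 ± 0.14. Dync1h1, the force-producing heavy chain, was higher by 0.32 ± 0.13 (adjusted p = 0.0266), with widely overlapping groups. When the share of Gm26924 entered the fit, Dync1i2 was at 0.01, Dync1li2 at 0.40 and Dync1h1 at 0.31, and none of these 3 was called. That share nearly followed Cre, so the fit cannot tell its part from that of Cre.

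The dynein light chains bind cargo adaptors and stabilise the complex. Dynll1 lay at 89.9 to 148.6 CPM with Cre and 9.75 to 35.0 CPM without Cre, and Dynlrb1 at 150.0 to 312.0 CPM with Cre and 33.7 to 71.0 CPM without Cre. Both were without overlap, at log2 changes of 2.28 ± 0.16 for Dynll1 and 2.196 ± 0.15 for Dynlrb1. Dynlt3 had 139, 659 and 788 CPM with Cre, against 67.02, 140.5 and 187 CPM without Cre, with overlap through mouse 14003-1 at 138.8 CPM. It was higher by 2.27 ± 0.17 and Dynll2 by 1.53 ± 0.21. Dynll2 was at 0.19 when the share of Gm26924 entered the fit, and was then not called. Dynlt1c had 3.56, 6.77 and 48.7 CPM with Cre, against 18.6, 35.8 and 75.5 CPM without Cre. It was lower, at -2.29 ± 0.38, but the Dynlt1 copies are near-identical. Shared words of 31 bases made up 71.0% of Dynlt1a, 86.9% of Dynlt1b, 86.5% of Dynlt1c and 92.7% of Dynlt1f, so the split between them is uncertain. Dynlt1a and Dynlt1b were not called, and Dynlt1f and Dynlrb2 were not tested over the 24 libraries. Dynein 2, the retrograde motor of cilia, was divided: its heavy chain Dync2h1 had 17.1 to 29.1 CPM with Cre and 40.2 to 140.0 CPM without (-1.66 ± 0.16), and its light intermediate chain Dync2li1 had 2.67, 5.00 and 9.23 CPM with Cre, against 0.495, 1.97 and 5.61 CPM without Cre. It was higher by 1.24 ± 0.33.

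Dynactin links dynein to cargo. Dctn3 had 50.4, 61.9 and 92.5 CPM (lowest, median and highest) in C201R with Cre, 34.4, 81.5 and 91.1 CPM in WT with Cre, 7.89, 10.6 and 25.6 CPM in C201R without Cre and 3.90, 6.19 and 29.9 CPM in WT without Cre. Every library with Cre exceeded every library without it, and the log2 change was 2.71 ± 0.29 (adjusted p = 8.86e-09), the largest among the dynactin genes. Dctn2, known as dynamitin, was higher by 2.22 ± 0.20, Dctn5 by 1.91 ± 0.18, Dctn6 by 1.71 ± 0.19, Dctn1, which binds microtubules, by 1.45 ± 0.16 and Dctn4 by 0.65 ± 0.13. Dctn5 had 51.9, 78.5 and 93.5 CPM with Cre, against 10.9, 18.8 and 45.8 CPM without Cre. Dctn2, Dctn5 and Dctn6 also had no overlap.

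**Figure D2:**
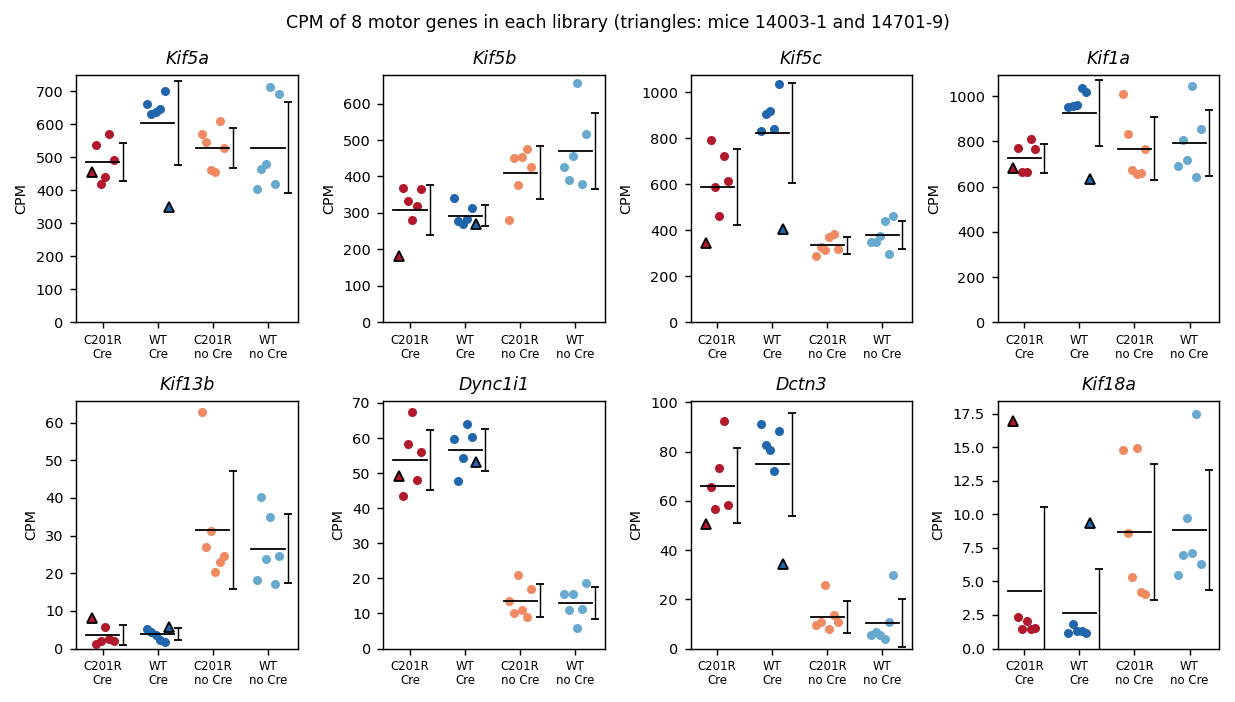
CPM of 8 motor genes in each library, by group (points are libraries, triangles mice 14003-1 and 14701-9, lines the means and bars the SD, n = 6). Dync1i1 and Dctn3 with Cre lie above every library without Cre, Kif13b with Cre lies below, and Kif5a and Kif1a overlap.

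These calls depend on how libraries are scaled. Scaling by library totals moved the median of all genes to 0.55 and gave 31 higher and 13 lower among the 58 genes. Genes at large thus shifted upward under this scaling. Shares of all genes called under this and the other settings below are not given here. The member counts therefore describe no trait of the motor genes. Kif5a (0.76), Kif1a (0.75) and Kif1b (0.64) were then called higher, as were Kif3b (0.64), Kif16b (0.73), Klc4 (1.13), Dynlt1a (1.92) and Dynlt1b (1.59). Dynlt1a passed the filter through the libraries with Cre alone, so its direction was fixed in part by the filter. Lower calls lost under library totals were Kif5b, which turned to 0.22 (adjusted p = 0.375), Kif6 (-1.06), Kif7 (-1.08), Kif9 (-0.47), Kif4 (-0.44), Kif11 (-0.32), Kifc3 (-0.51) and Kif26a (-1.04). RLE scaling moved the median of all genes to -0.265, with 22 members higher and 21 lower. When the share of Gm26924, which nearly followed Cre, entered the fit, the counts were 17 higher and 14 lower. The calls lost were then Dync1i2, Dync1li2, Dync1h1, Dync2li1, Dynll2 and Dctn1 (0.52, adjusted p = 0.079) among the higher genes, and Kif5b (-0.33), Kifc3 (-0.49), Kif26a (-2.51), Kif23 (-2.25), Kif4 (-1.72), Kif7 (-1.12) and Kif9 (-1.25) among the lower ones. The estimates of Kif26a, Kif4 and Kif9 were farther from 0 than without the covariate. Kif1a was called higher by limma-voom (0.23, adjusted p = 0.0225) and in library series 2 alone (0.23, adjusted p = 0.0388).

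Transcript length moved with the Cre change. Over the 58 genes the Spearman rank correlation across genes between effective length and log2 change was -0.493, against -0.222 over all 16109 genes. Among the 29 more abundant members it was -0.754, against -0.486 over 4055 genes of like abundance. The genes are not independent replicates and share their libraries, so these are descriptions. Short dynein light chains and dynactin subunits were at one end, and the long Kif13b, Kif13a and Dync2h1 at the other. The part of length in the changes above was not tested.

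**Figure D3:**
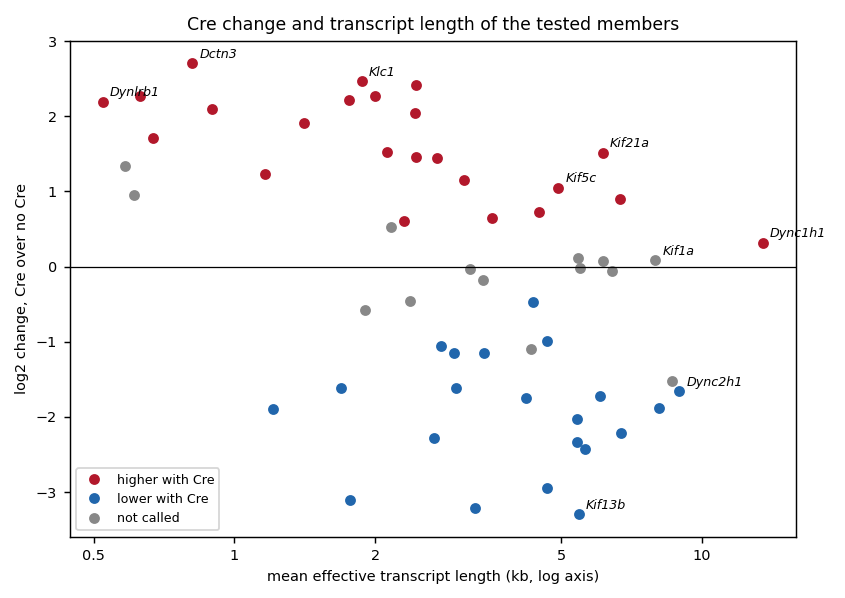
Log2 change, Cre over no Cre, of the 58 tested genes against mean effective transcript length (kb, log axis; 1 point per gene). Shorter genes such as Dynlrb1 and Dctn3 sit high, and longer genes such as Dync2h1 and Kif13b sit low, with Kif5c, Kif21a and Dync1h1 above 0 among the long genes.

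Ratios of paralogs within a library need no scaling between libraries. For 8 pairs, the log2 ratio per length was compared in 4 group comparisons, and the 32 exact two-sided permutation p-values (smallest possible 0.0022) were adjusted together. Kif5c over Kif5b averaged 0.74 ± 0.19 (SD, n = 6) in C201R with Cre and -0.46 ± 0.18 in C201R without Cre, and 1.26 ± 0.46 in WT with Cre and -0.48 ± 0.15 in WT without Cre. The differences, 1.198 in C201R and 1.74 in WT, had an adjusted p of 0.0115 each, without overlap between groups. Dync1i1 over Dync1i2 differed by 1.05 in C201R and 1.81 in WT, and Dync1li1 over Dync1li2 by 1.69 and 1.71, all at the same adjusted p and without overlap. In each of these 3 pairs the first paralog made up a larger part of the pair with Cre in both genotypes. Kif5a over Kif5b differed by 0.86 in WT (adjusted p = 0.0198, overlapping) and by 0.31 in C201R (adjusted p = 0.26). For Kif1a over Kif1b, the pair of kinesin-3 carriers, the differences were 0.10 in C201R and 0.16 in WT (adjusted p = 0.476 and 0.203).

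**Figure D4:**
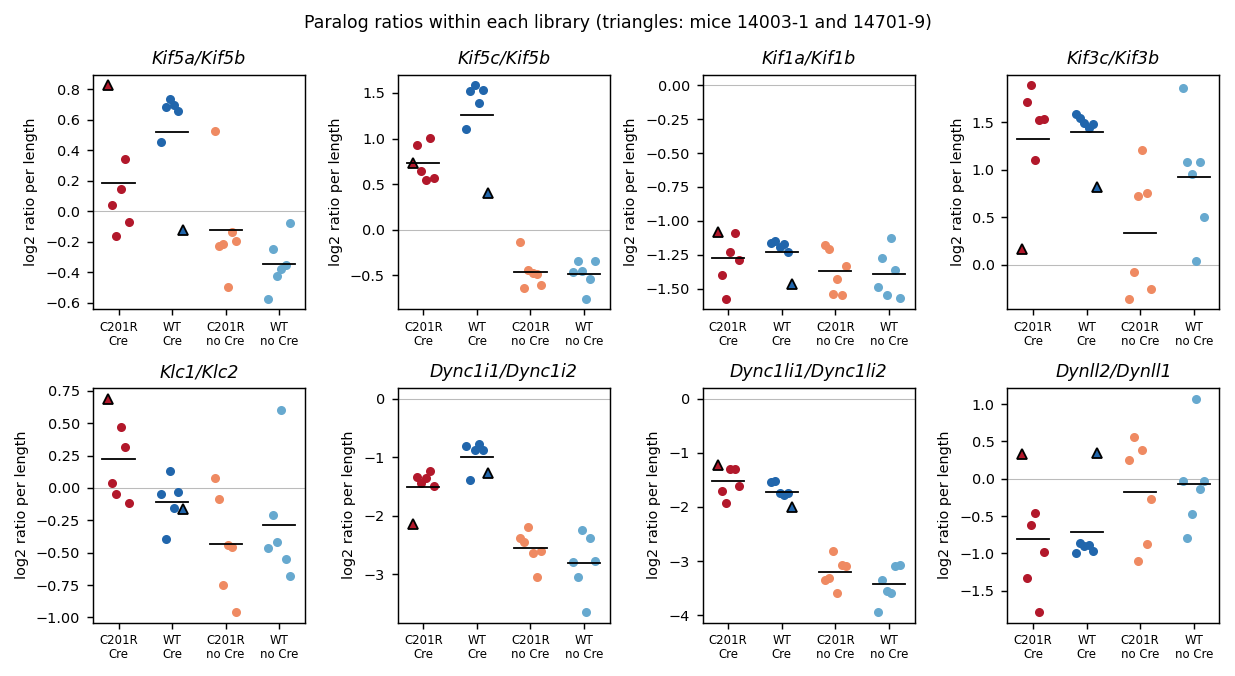
Log2 ratio of 8 paralog pairs per length within each library, by group (points are libraries, triangles mice 14003-1 and 14701-9, lines the means). Kif5c/Kif5b, Dync1i1/Dync1i2 and Dync1li1/Dync1li2 are higher with Cre in both genotypes, without overlap.

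The main comparison asked how C201R changes the motor genes on cholinergic ribosomes. Over all 12 libraries with Cre, 54 of the 67 genes were tested and 0 were called by edgeR (background 2.29% of 14634 genes higher and 1.82% lower). At an unadjusted p under 0.05, 9 of the 54 passed, against 2687 of all 14634 genes. DESeq2 called 2, Dynll1 and Kif3a, and limma-voom 0. DESeq2 also called more of all genes than edgeR did. The median log2 change of the 54 was -0.097, against -0.006 for all genes. Scaling by library totals moved the median of all genes to -0.264, and then 0 members were called as well.

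The light chain Dynll1 came nearest to the threshold. It had 104.4, 136.4 and 148.6 CPM (lowest, median and highest) in C201R with Cre, against 89.9, 93.1 and 109.9 CPM in WT with Cre. All 6 C201R libraries exceeded the WT median, with overlap at the edge of the ranges, and the log2 change was 0.43 ± 0.12 (adjusted p = 0.0502). In library series 2, the larger of the sets of library numbers, it was 0.46 (adjusted p = 0.0172). Kif3a, with all 6 C201R libraries above the WT median, had 152.0 to 235.7 CPM in C201R and 108.4 to 160.8 CPM in WT (0.42 ± 0.14, adjusted p = 0.11), but 0.18 in series 2 (adjusted p = 0.291). Dync1i2 (0.39 ± 0.15) and Klc1 (0.21 ± 0.10) also had positive changes that did not pass. Scaled by library totals, Dynll1 was at 0.18 (adjusted p = 0.823), Kif3a at 0.11, Dync1i2 at 0.10 and Klc1 at -0.05.

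For the long-distance kinesins Kif1a and Kif5a, 1 WT library decided the call. Kif1a had 662.7 to 812.4 CPM in C201R with Cre, against 952.4 to 1034 CPM in 5 of the WT libraries and 635.7 CPM in mouse 14701-9. Kif5a had 419.9 to 570.3 CPM in C201R, against 631.1 to 701.7 CPM in those 5 WT libraries and 350.8 CPM in mouse 14701-9. For both genes the C201R libraries lay below the 5 WT libraries without overlap and above the remaining one. Over all 12 libraries the log2 changes were -0.29 ± 0.11 for Kif1a (adjusted p = 0.144) and -0.25 ± 0.13 for Kif5a (adjusted p = 0.344). Kif5c had 343 to 792 CPM in C201R, against 832.8 to 1034 CPM in those 5 WT libraries and 403.7 CPM in mouse 14701-9 (-0.38 ± 0.16, adjusted p = 0.22). Kif1b (-0.24 ± 0.10), Kif21a (-0.23 ± 0.09) and Kif21b (-0.46 ± 0.21) were in the same direction at an unadjusted p under 0.05, and none passed the adjusted threshold.

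Without mice 14003-1 and 14701-9, 6 of the members tested were called. Kif5c (-0.44, adjusted p = 0.0157), Kif1a (-0.37, adjusted p = 0.00994), Kif5a (-0.37, adjusted p = 0.0189) and the dynactin gene Dctn4 (-0.35, adjusted p = 0.0362) were lower, against a background of 6.79% of 14672 genes. Dynll1 (0.47, adjusted p = 0.00821) and Dynlt1c (0.90, adjusted p = 0.0176; its split from the other Dynlt1 copies is uncertain) were higher, against 6.5%. The share of members called lower was thus near its background, and the share called higher was below its own. In library series 2 alone, which holds neither mouse, Dynll1, Dynlt1c, Kif1a (-0.34) and Kif5c (-0.37) were called. That fit also called more of all genes than the fit over all libraries with Cre. Without mouse 14701-9 alone the calls were Kif1a (-0.38) and Kif5a (-0.37), and without mouse 14003-1 alone Dynll1 (0.48). Shares of all genes called in series 2 and in these single omissions are not given here. Their member calls are therefore not measured against a background. Library series 1 holds 3 C201R and 2 WT libraries with Cre and was not fitted alone. With the first part of the mouse number as a replicate block, 0 members were called, and Dynll1 was at 0.48 (adjusted p = 0.23).

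**Figure D5:**
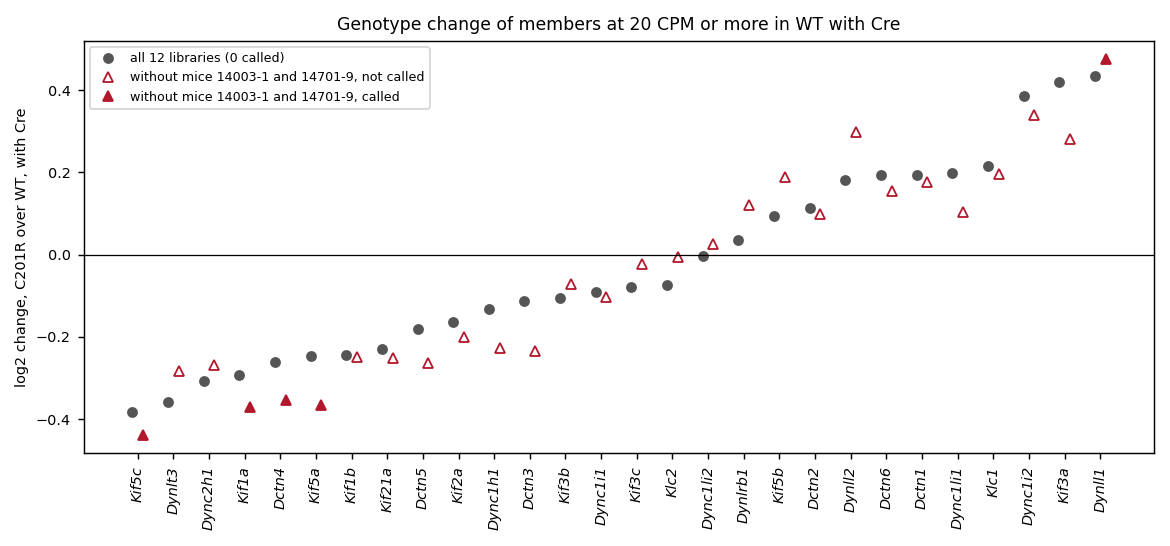
Log2 change, C201R over WT with Cre, of the members at 20 CPM or more in WT with Cre, over all 12 libraries (grey circles) and without mice 14003-1 and 14701-9 (triangles, filled where called). Without these mice Kif5c, Kif1a, Dctn4 and Kif5a are called lower and Dynll1 higher, and over all 12 libraries none is called.

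The paralog ratios were also compared between genotypes. Kif5c over Kif5b was lower in C201R than in WT by a log2 difference of -0.52 (exact permutation p = 0.0346, adjusted p = 0.101, overlapping). With labels exchanged within library series the adjusted p was 0.0457, and without mouse 14701-9 the difference was -0.69 (adjusted p = 0.00866). Dync1i1 over Dync1i2 averaged -1.51 ± 0.33 in C201R and -1.01 ± 0.27 in WT (SD, n = 6; difference -0.50, exact permutation p = 0.0173, adjusted p = 0.0616), and the adjusted p was 0.0485 without WT mouse 14701-9 and 0.026 without WT mouse 14004-6. None of the 8 ratios differed between genotypes at an adjusted p under 0.05 over all libraries, with or without Cre, when labels were exchanged without regard to library series.

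Other genes of the pathway were read from 3 lists: 22 dynein and dynactin partners, 22 kinesin adaptors and 19 microtubule associated proteins. With Cre over without, 12 partners were higher and 6 lower, 14 adaptors higher and 5 lower, and 14 microtubule associated proteins higher and 3 lower (33.4% of all genes were higher and 37.4% lower), with median log2 changes of 0.828 for the partners, 0.615 for the adaptors and 1.062 for the microtubule associated proteins. The partners included Actr1a (1.90 ± 0.14), the actin-related filament of dynactin, and Ndel1 (1.55 ± 0.17), a dynein regulator, among those higher. Nde1 (-2.69 ± 0.26) and Hook3 (-1.23 ± 0.12), a dynein adaptor, were lower. Between genotypes with Cre, 3 of these 63 genes were higher and 3 lower (2.29% of all genes were higher and 1.82% lower). Dclk1, a doublecortin-like kinase on microtubules, had 157.8 to 269.8 CPM in C201R with Cre and 280.4 to 599.4 CPM in WT with Cre, without overlap (-1.06 ± 0.14, adjusted p = 0.000596). Map1b, a microtubule associated protein of growing axons, was also lower (-0.52 ± 0.11, adjusted p = 0.0183), as was the kinesin-1 adaptor Mapk8ip1 (-0.59 ± 0.16, adjusted p = 0.0464). Nudc, a dynein cofactor, had 86.9 to 185.7 CPM in C201R and 54.7 to 98.7 CPM in WT (0.73 ± 0.14, adjusted p = 0.0106). Hap1, which links huntingtin to motors (0.64 ± 0.17, adjusted p = 0.0457), and Map4 (0.44 ± 0.12, adjusted p = 0.0452) were higher.

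Beside these values, the cholinergic marker Chodl, found in fast motor neurons, was lower in C201R with Cre at 163.1 to 226.6 CPM, against 250.9 to 482.4 CPM in WT with Cre (-1.02 ± 0.14, adjusted p = 0.000635). It was the only called gene of the 7 cholinergic markers. Of the marker lists of other cells, 1 gene was called: the astrocyte gene Aldoc was higher in C201R (0.58, adjusted p = 0.0428). Summed astrocyte markers were 129.7 to 237.2 CPM per kb in C201R with Cre and 103.1 to 157.3 in WT with Cre, and markers of other spinal neurons 27.5 to 40.3 in C201R and 20.9 to 29.8 in WT. The part of these markers in the motor gene values was not tested. Gm26924 took 8.01 to 43.3% of counts in C201R and 7.45 to 30.8% in WT with Cre, and its part was not tested either beyond the covariate fit.

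Without Cre, 55 of the 67 genes were tested between genotypes. edgeR called 0 (background 0% of 14400 genes), DESeq2 0 and limma-voom 0, and 0 members had an unadjusted p under 0.05, against 455 of all genes. Kif5c, for example, was at -0.18 ± 0.15, Kif1a at -0.06 ± 0.16 and Dynll1 at -0.11 ± 0.26. The interaction, which tests whether the genotype change differs with Cre, called 0 of 58 members by edgeR, DESeq2 and limma-voom (background 0.13% of 16109 genes). Dync1i2 alone had an unadjusted p under 0.05 (0.59 ± 0.27, adjusted p = 0.509 by edgeR), against 1462 of all 16109 genes. For Kif1a the interaction was -0.29 ± 0.22 and for Dynll1 0.54 ± 0.30, so a difference between pulldowns in these genotype changes was not shown.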

How the data were processed

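The 24 libraries hold RNA pulled down with tagged ribosomes from spinal cords, 6 mice a group. The deposited values are expected counts per gene, with effective lengths, made by the authors; the submitters' processing notes name Bowtie2 2.2.0 and RSEM 1.2.12. Build, annotation and strand setting are not given in the sources used here. Expected counts were rounded to whole numbers (15.0% of values were not whole), and RSEM divides shared reads between near-identical genes. Totals were 8898800 to 28294939, which limits precision for the low mitotic and ciliary genes. Whether the mice share litters is not given, and p-values measure the spread between these mice.

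Low genes were removed with filterByExpr. The whole table was then scaled by TMM and tested with the quasi-likelihood test of edgeR 4.0.16 (R 4.3.3), library series being a term of each model. Library numbers fall into 2 runs, 7 and 17 libraries, called series 1 and 2; the labels do not say what they stand for. Genotype fits used their own 12 libraries, and the Cre comparison and interaction all 24. A gene is called where its p, adjusted over all genes by Benjamini and Hochberg, is under 0.05. An SE is the log2 change over the square root of F. Levels are CPM, or CPM per kb of mean effective length. Paralog ratios used a pseudocount of 0.5 and were compared in Python 3.11.15. Fits were tested on simulated data.

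The members and lists were chosen with earlier results of these data known. Members with values per library are, by role, the 2 highest per length in WT with Cre and the largest Cre change; others named were chosen after their values were seen. Promoters are from RefSeq, and shared words and exon overlaps from GENCODE, whose identifiers matched all 67 genes. Alternatives were RLE scaling, library totals, no filter, DESeq2 1.42.0, limma-voom (limma 3.58.1), no series term, series 2 alone, the first part of the mouse number as replicate block, Gm26924 left out or as covariate, and subsets of libraries. Mouse numbers name mice and pair no samples across groups.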

Additional observations from a re-analysis of the deposited data

Results flagged for a closer look

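For 28 members, the 6 libraries of each group were searched for a library whose gap to its neighbour exceeded Dixon's 95% critical value, as a share of the group's range. Of 112 sets, 24 held such a library, where chance gives about 1 in 20. Mouse 14701-9 (WT with Cre) accounted for 11 and mouse 14003-1 (C201R with Cre) for 5.

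Mouse 14701-9 was the highest library of its group for some genes that were higher with Cre, such as Dynll2 (412.6 CPM) and Dctn1 (120.4 CPM). It was flagged as low for other motor genes that were higher or level with Cre. It had 34.38 CPM of Dctn3, 51.9 of Dctn5, 425.3 of Dynlt3, 403.7 of Kif5c, 350.8 of Kif5a, 64.09 of Kif3c, 635.7 of Kif1a and 89.42 of Kif2a. It was high for Kif24 (9.237 CPM), Dynlt1c (35.42) and Kif18a (9.332). Mouse 14003-1 was high for Kif24 (8.12 CPM), Kif6 (4.798), Dynlt1c (48.72), Kif22 (3.691) and Kif18a (16.98).

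Among libraries without Cre, C201R mouse 14003-2 was high for Kif1b (917.9 CPM) and Kif13b (62.68), and C201R mouse 14004-8 for Dctn3 (25.61). WT mouse 14702-6, whose cholinergic markers were also the highest of its group, was high for Dctn3 (29.89 CPM) and Dync1li1 (17.96). WT mouse 14702-4 was high for Kif24 (19.68 CPM), mouse 14702-5 for Kif18a (17.48) and mouse 14701-1 for Kif21b (68.46).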

How the results depend on the processing

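The count of members higher or lower with Cre stayed within 1.5 times its value under every alternative run except library totals, where 13 were lower in place of 21. Kif1b, at -0.03 with Cre over without, was at 0.64 under library totals. Between genotypes with Cre, 0 members were called over all libraries, 1 (higher) under RLE scaling, 2 (higher) by DESeq2, 4 in library series 2 alone (2 higher, 2 lower) and 6 without mice 14003-1 and 14701-9 (2 higher, 4 lower). Leaving out 1 library at a time gave 0 to 2 calls (0 to 1 higher, 0 to 2 lower), with the non-zero counts from mice 14003-1 (1) and 14701-9 (2). Over all genes this comparison called 601 in the reported fit, 1344 by DESeq2, 233 by limma-voom, 32 under library totals, 1370 in series 2 alone and 1950 without both mice. Mouse numbers pair no samples across groups; with the first part of the number as a replicate block, 41 members were called with Cre over without, 0 between genotypes with Cre and 75 of all genes there. The paralog ratios gave 7 calls, 8 with labels exchanged within series and 7 with a pseudocount of 5; leaving out 1 library gave 7 to 10, the 10 without mouse 14701-9. Causes of these shifts were not tested. Shares of all genes called were set beside member counts only for the reported fits and the genotype fit without both mice. The member counts of other fits are therefore not measured against a background. Low counts limit the mitotic and ciliary kinesins, and the Dynlt1 copies and the Kifc1 and Kifc5b pair share most of their sequence.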

Other observations

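In C201R mouse 14003-1 with Cre, 3 genes that were near 0 in the other libraries with Cre had clear counts. Klc3, a kinesin light chain, had 17.5 CPM there and at most 0.290 CPM in the other 5 libraries of its group. Kif2b, a mitotic kinesin, had 10.52 CPM against at most 0.985, and Kif14 had 10.1 CPM against at most 0.464.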
